A study of Rattus norvegicus with 16 samples.

Results

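Sorted neuroblasts of the rat carotid body were compared between rats kept for 3 days in hypoxic chambers and rats kept in ambient air (normoxia). The comparison used the 8 neuroblast arrays of a series of 16, chosen by their sample labels: 4 of hypoxic neuroblasts and 4 of normoxic neuroblasts. All samples came from Wistar rats of 9 to 11 weeks, and all rats were otherwise untreated as far as the labels say. The sources used here do not give the oxygen level of the chambers. The left and right carotid bodies were mixed and dispersed with enzymes. Neuroblasts were sorted as cells stained by an HNK-1 antibody, and the other 8 arrays hold the HNK-1 negative cells, called glomus cells, of the same 2 oxygen conditions. Each array was made from 500 pg of total RNA. Whether the 4 samples of a group were taken from different animals is not stated, so p-values reflect how much these samples vary and no more, and 4 arrays a group limit the precision. In such sorted populations, a smaller number of cells of a type and less RNA per cell cannot be told apart.

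The carotid body lies at the fork of the carotid artery and senses the oxygen of arterial blood. Its glomus cells are excitable cells of neural crest origin that store catecholamines and release transmitter when oxygen falls. Neuroblasts are less mature cells of the same sympathoadrenal lineage, and the organ is known to grow during lasting hypoxia, with new glomus cells formed from precursors. The HNK-1 epitope used for the sort is a sulfated sugar chain that the glucuronyltransferase encoded by B3gat1 and the sulfotransferase encoded by Chst10 help to build on neural adhesion molecules.

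The values are the authors' log2 expression values, and a difference is hypoxic minus normoxic on that scale, ± its standard error, so 1 unit is a 2-fold difference. The medians of the normoxic neuroblast arrays were 4.61, 4.57, 4.40 and 4.48, and those of the hypoxic arrays 4.94, 4.77, 4.77 and 4.71. The mean median was therefore 4.51 ± 0.09 in normoxia and 4.80 ± 0.10 in hypoxia (SD, n = 4), a difference of 0.28 with no overlap (exact permutation p = 0.0286, two-sided, the smallest that 4 against 4 allows). The spread within an array, given as the interquartile range, was 3.13 ± 0.14 in normoxia and 2.59 ± 0.31 in hypoxia. Dim probes were higher and bright probes lower in hypoxia: the median difference was 0.30 in the dimmest of 4 equal groups of probes and -0.33 in the brightest, and in glomus cells it was 0.20 and -0.17. Replicate 1 of the hypoxic neuroblasts differed most from its group, with a mean correlation across probes of 0.914 with the rest of its group, against 0.949, 0.949 and 0.949 for replicates 2 to 4. What these shifts add to the differences of single genes was not tested, so list counts are also given after each array was centred on its median, and without that array where this moved a count by over 1.5 times. RNA integrity could not be read from the values. Whether RNA quality or transcript length relates to the differences was not tested.

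**Figure D1:**
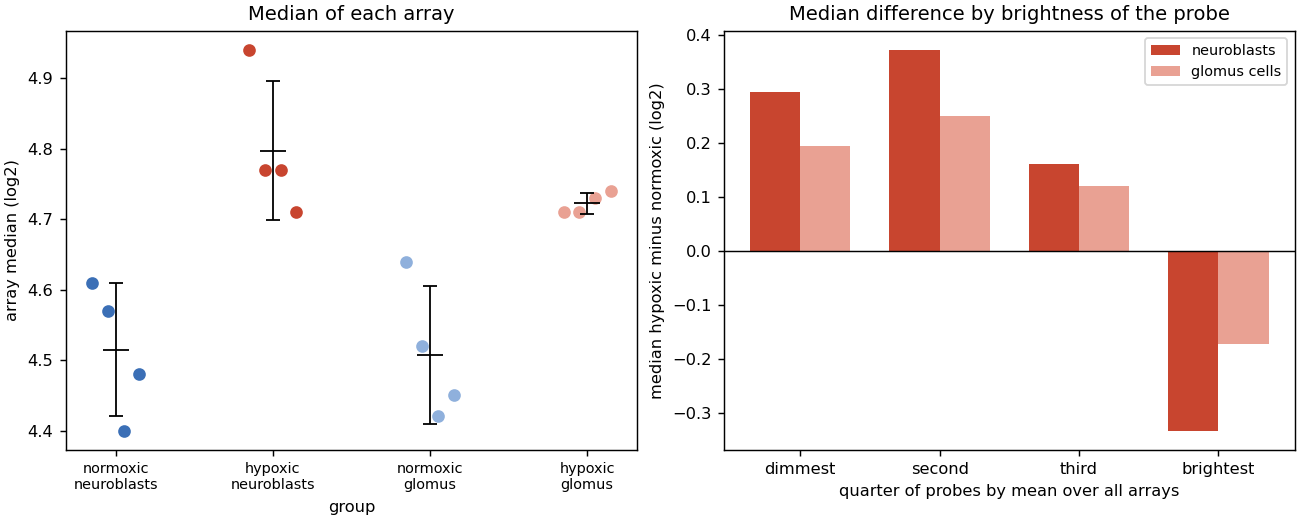
The left panel plots the median log2 value of each of the 16 arrays (points) with the group mean and SD (bars). The right panel plots the median hypoxic minus normoxic difference (log2) in 4 equal groups of probes ordered by brightness, which is 0.30 in the dimmest and -0.33 in the brightest group in neuroblasts.

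Hypoxia was accompanied by a change in the neuroblasts that reached much of the measured transcriptome. Of 30429 probes, 9755 passed at an adjusted p under 0.05 by limma (32.1%), 5596 of them higher and 4159 lower in hypoxia. At least a 2-fold difference was found for 1689 of the higher and 2563 of the lower probes. The 4 hypoxic values all lay above or all lay below the 4 normoxic values in 8511 probes (28.0%), and in 7269 of the 9755 that passed. With 1 probe per gene, 3153 of 18166 genes were higher (17.4%) and 3442 lower (18.9%), and the median over all genes was 0.19. The split of directions depended on the scaling. Median centring of the arrays gave 1826 higher and 5464 lower probes, and with quantile normalization 3278 were higher and 3701 lower. The corresponding medians over all genes were -0.09 and -0.01. Over genes, centring left 1076 higher (5.92%) and 4409 lower (24.3%), and leaving out hypoxic replicate 1 left 2757 higher (15.2%) and 2995 lower (16.5%). The list counts given below for these settings are to be read against these shares.

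The largest rise was that of Cdkn3 and the largest fall that of Txnip. Cdkn3 (probe 17697904), a phosphatase that acts on cyclin-dependent kinases, was at 3.99, 4.90, 4.62 and 3.72 in the normoxic arrays and at 9.26, 9.27, 9.02 and 9.19 in the hypoxic arrays. All hypoxic arrays lay far above all normoxic ones, by 4.88 ± 0.40 or 29.4-fold (adjusted p = 5.49e-07, limma). Rrm2 (probe 17732584), a subunit of the ribonucleotide reductase that makes deoxynucleotides, was at 5.38, 6.21, 5.81 and 5.24 in normoxia and at 10.66, 10.19, 10.43 and 10.55 in hypoxia. The groups did not overlap, and the rise was 4.80 ± 0.23 (adjusted p = 2.77e-09). Another, dimmer probe of Rrm2 differed by 0.89 (adjusted p = 0.0108), in the same direction but less. Cdk1 (probe 17754704), the kinase that drives entry into mitosis, was at 3.44, 3.86, 3.86 and 3.45 in normoxia and at 6.83, 8.38, 8.76 and 8.67 in hypoxia. Its rise was 4.51 ± 0.32 (adjusted p = 2.77e-07), and the lowest hypoxic value was that of replicate 1.

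**Figure D2:**
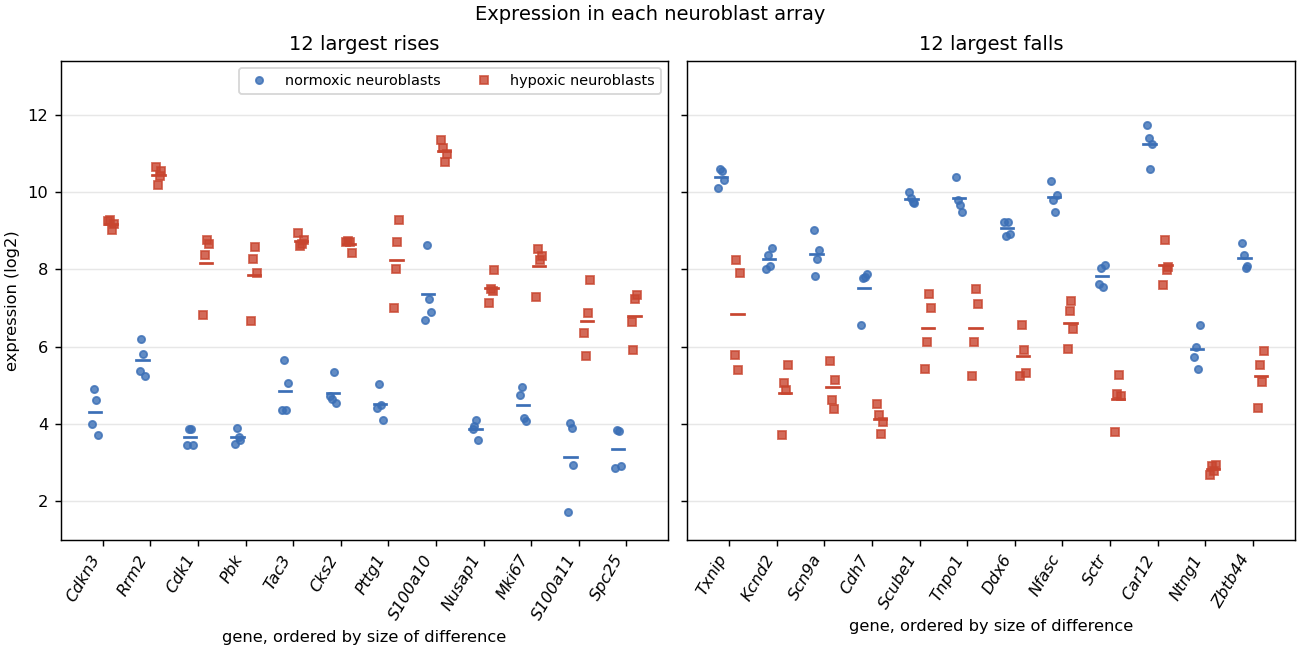
Expression (log2) of the 12 genes with the largest rises (left) and the 12 with the largest falls (right) in the 4 normoxic (circles) and 4 hypoxic (squares) neuroblast arrays, with group means as lines. The groups do not overlap for any of these genes, which the rule for naming them required, and Cdkn3 has the largest rise (4.88) and Txnip the largest fall (-3.56).

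Genes of mitosis and chromosome segregation were mostly higher in hypoxia. Of the 59 measured genes of this list 48 were higher (81.4%, against 17.4% of all genes) and 1 lower, with a median difference of 1.38 against 0.19. After centring 37 were higher and 1 lower, and without hypoxic replicate 1 these numbers were 51 and 1. Mki67 (probe 17637913), the gene of the Ki-67 antigen of cycling cells, was at 4.74, 4.95, 4.16 and 4.07 in normoxia and at 7.29, 8.52, 8.25 and 8.34 in hypoxia. It rose by 3.62 ± 0.27 (adjusted p = 2.89e-07). Cks2 (probe 17718441), a small partner of cyclin-dependent kinases, was at 4.71, 4.65, 5.35 and 4.54 in normoxia and at 8.71, 8.74, 8.71 and 8.43 in hypoxia. The 4 hypoxic values of Cks2 lay within 0.31 of each other, and the rise was 3.84 ± 0.19 (adjusted p = 4.07e-09). Pttg1, which encodes securin, the inhibitor of chromatid separation, rose by 3.74 ± 0.35. Nusap1, a spindle microtubule protein, rose by 3.64 ± 0.22 and Spc25, a part of the kinetochore, by 3.43 ± 0.31. Tpx2, an activator of Aurora A on the spindle, rose by 3.16 ± 0.24.

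The rest of the mitosis list covered most steps of division. The mitotic cyclin genes Ccnb1, Ccna2 and Ccnb2 differed by 2.83, 2.67 and 1.32, and the DNA topoisomerase gene Top2a by 2.61. The mitotic kinase genes Plk1, Ttk, Bub1, Aurka and Aurkb were higher by 2.32, 1.95, 1.65, 1.23 and 0.77. Cdc25b, a phosphatase that activates cyclin-dependent kinases, was the gene that fell (-1.21, adjusted p = 0.00091). The 10 genes that did not pass included the transcription factor gene Foxm1 (0.55, adjusted p = 0.092) and the condensin gene Smc2 (0.51). These members were chosen after their values were seen. Pbk, a mitotic kinase outside the list, was among the 12 largest rises. It was at 3.47, 3.90, 3.66 and 3.57 in normoxia and at 6.66, 8.27, 8.57 and 7.92 in hypoxia, a difference of 4.21 ± 0.33 (adjusted p = 2.95e-07).

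The promoters of these genes are shown because the leading members share a short motif that is known from genes expressed in the G2 and M phases. The windows are RefSeq promoters of GRCr8, from 150 bases before to 50 after the start, each read 5′ to 3′ on the strand of its gene. Capitals mark TTTGAA or TTCGAA, the cell cycle homology region, on either strand (TTCAAA is the first read on the opposite strand). Cdkn3 lies at chr15:22502236-22502435 (+), Cdk1 at chr20:19265143-19265342 (+), Cks2 at chr17:13727470-13727669 (-), Pttg1 at chr10:28406277-28406476 (-), Nusap1 at chr3:127057145-127057344 (+), Mki67 at chr1:199952544-199952743 (-) and Spc25 at chr3:74396669-74396868 (-).
Cdkn3: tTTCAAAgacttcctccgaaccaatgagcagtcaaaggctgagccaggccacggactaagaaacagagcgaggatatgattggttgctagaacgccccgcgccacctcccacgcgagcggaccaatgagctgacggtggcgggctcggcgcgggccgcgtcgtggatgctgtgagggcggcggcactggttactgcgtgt
Cdk1: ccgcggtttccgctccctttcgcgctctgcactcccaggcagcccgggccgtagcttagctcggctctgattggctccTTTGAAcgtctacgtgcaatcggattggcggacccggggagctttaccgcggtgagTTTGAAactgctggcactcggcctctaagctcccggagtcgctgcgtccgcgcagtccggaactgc
Cks2: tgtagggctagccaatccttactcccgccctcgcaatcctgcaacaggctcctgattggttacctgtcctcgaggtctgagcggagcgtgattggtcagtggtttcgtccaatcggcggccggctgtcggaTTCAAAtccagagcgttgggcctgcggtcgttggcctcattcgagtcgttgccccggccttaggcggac
Pttg1: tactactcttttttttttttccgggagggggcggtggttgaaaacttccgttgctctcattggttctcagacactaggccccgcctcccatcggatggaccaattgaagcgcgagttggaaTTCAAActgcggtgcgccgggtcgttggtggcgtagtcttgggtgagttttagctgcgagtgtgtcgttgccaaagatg
Nusap1: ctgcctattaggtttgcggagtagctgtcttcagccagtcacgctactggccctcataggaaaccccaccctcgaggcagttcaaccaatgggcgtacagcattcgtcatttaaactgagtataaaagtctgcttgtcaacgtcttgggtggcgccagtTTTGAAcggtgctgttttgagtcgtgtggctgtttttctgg
Mki67: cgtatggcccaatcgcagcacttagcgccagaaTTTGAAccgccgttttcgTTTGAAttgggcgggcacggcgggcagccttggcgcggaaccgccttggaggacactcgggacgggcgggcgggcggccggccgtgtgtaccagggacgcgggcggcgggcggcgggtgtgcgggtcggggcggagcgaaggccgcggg
Spc25: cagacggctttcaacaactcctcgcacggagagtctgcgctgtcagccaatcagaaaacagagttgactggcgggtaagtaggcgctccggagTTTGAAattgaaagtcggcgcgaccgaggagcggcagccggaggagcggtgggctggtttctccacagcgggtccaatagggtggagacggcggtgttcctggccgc

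In windows of 300 bases the motif was found in 39 of the 52 mitosis genes that had a window (75%), against 2537 of 14503 measured genes (17.5%). The share was 72.1% of the 43 that rose and 88.9% of the 9 that did not. The genes that rose at large held it in 19.5% of 2475 windows and those that fell in 11.1% of 2886. The E2F motif (TTTGGCGC or TTTCGCGC, either strand) was in 14 of 36 windows of the DNA replication list (38.9%), against 1.13% of all. CCAAT on either strand, searched after the windows had been seen, was in 78.8% of the mitosis windows and 38.0% of all. The core of the hypoxia response element (ACGTG or GCGTG, either strand) was in 50.7% of all windows, 48.6% of those of genes that rose and 63.3% of those that fell. None of these motifs contains another, and a match is a description of the letters in the window only.

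In the DNA replication list more genes were higher than lower. Of 42 measured genes 23 were higher and 2 lower (54.8% and 4.76%), with a median of 0.57. After centring 13 were higher and 3 lower, and without hypoxic replicate 1 the numbers were 23 and 2. Pcna (probe 17777527), the sliding clamp of DNA polymerase, was at 7.34, 7.24, 7.54 and 7.58 in normoxia and at 9.08, 9.15, 9.06 and 9.27 in hypoxia. Its difference was 1.72 ± 0.15 (adjusted p = 7.45e-07), with no overlap. Gmnn, which encodes geminin, an inhibitor of new origin licensing, rose by 3.07 ± 0.25. Rfc4, a clamp loader subunit, rose by 2.02 ± 0.28 and Rpa3, a part of the single-strand binding protein, by 1.83 ± 0.25. Among the subunits of the MCM helicase that opens DNA, Mcm5 was higher by 1.43 and Mcm3 by 0.53, while Mcm2 (-0.12), Mcm4 (0.13), Mcm6 (0.79) and Mcm7 (-0.40) did not pass. Rpa1 (-1.12) and Pold1 (-0.64) were the 2 that fell. The MCM genes, Rpa1 and Pold1 were picked after their values were seen.

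Genes of the G1 phase did not share a direction. Of 23 genes 6 were higher and 5 lower (26.1% and 21.7%, against 17.4% and 18.9% of all genes). The median of 0.13 turned to -0.15 after centring and quantile normalization alike. After centring 1 was higher and 6 lower. Ccnd2, a D-type cyclin, was at 9.09, 9.44, 8.95 and 9.03 in normoxia and at 7.46, 8.07, 7.19 and 8.06 in hypoxia, a fall of -1.43 ± 0.19 (adjusted p = 3.63e-05). Rb1, the retinoblastoma protein that restrains E2F, fell by 1.83 on the log2 scale, and the kinase inhibitor gene Cdkn1b by 0.83. Cdkn2c, an inhibitor of the G1 kinases, rose by 2.44 ± 0.36, and Myc, a growth regulator, fell by 0.73.

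Marker genes of the neuroblast sort were compared between the populations. Cdkn3 (-0.34, adjusted p = 0.972) and Mki67 (-0.23, adjusted p = 0.973) did not differ in normoxia by limma. They did not pass after hypoxia either (1.90, adjusted p = 0.0559, and 0.82, adjusted p = 0.281). Dbh, the enzyme that turns dopamine into noradrenaline, averaged 9.91 ± 0.22 in normoxic neuroblasts and 6.17 ± 0.43 in normoxic glomus cells. After hypoxia these means were 7.64 ± 0.91 and 5.20 ± 0.38, so Dbh still differed between the populations (2.44, adjusted p = 0.00348, limma). B3gat1, a gene behind the sorting epitope, differed in normoxia (1.36, adjusted p = 0.0197) but did not pass after hypoxia (0.31, adjusted p = 0.72). Chst10 passed in neither condition (0.045, adjusted p = 0.999, and 0.48, adjusted p = 0.533). By limma 555 probes (1.82%) differed between the populations in normoxia and 86 (0.283%) after hypoxia. Scn9a also remained higher in the hypoxic neuroblasts than in the hypoxic glomus cells (1.49, adjusted p = 0.0296). Kcnd2 did not (0.64, adjusted p = 0.447), and neither did Sctr, Cdh7, Ntng1 or Srgap1, whose differences after hypoxia lay between -0.21 and 0.29 with adjusted p between 0.663 and 0.946. Sctr, Cdh7, Ntng1 and Srgap1 were chosen from these same arrays, so their levels are no check of the sort label.

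Among the neuroblast markers were 2 ion channels that fell. Kcnd2 (probe 17781773), a pore subunit of A-type potassium current, was at 8.02, 8.38, 8.09 and 8.56 in normoxic neuroblasts and at 3.70, 5.05, 4.88 and 5.53 in hypoxic ones. The groups were 11.1-fold apart, a difference of -3.47 ± 0.30 (adjusted p = 7.45e-07), and -3.11 without hypoxic replicate 1, the lowest array. Its mean in glomus cells was 4.27 ± 0.44 in normoxia and 4.16 ± 0.09 in hypoxia, which the hypoxic neuroblast arrays overlapped. Scn9a (probe 17772920), the pore of the voltage-gated sodium channel Nav1.7 of peripheral neurons, was at 9.02, 7.84, 8.26 and 8.51 in normoxia and at 5.63, 4.63, 4.38 and 5.14 in hypoxia. It fell by 3.46 on the log2 scale (± 0.29, adjusted p = 5.49e-07), with no overlap.

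The test of the difference between the populations passed for 24 probes by limma (0.0789%), 8 positive and 16 negative, while 2015 had an unadjusted p under 0.05. A positive difference means a more positive change in neuroblasts than in glomus cells. After centring 11 probes passed, all of them negative by limma, and 686 positive differences had an unadjusted p under 0.05, so none of the 8 positive differences passed there. Dropping replicate 4 of the normoxic neuroblasts gave 11, dropping normoxic glomus replicates 2, 3 or 4 gave 11, 12 and 12, and dropping hypoxic glomus replicates 2 or 4 gave 13 and 13. The 6 most negative differences belonged to genes that were higher in normoxic neuroblasts than in glomus cells. Each of them passed at an adjusted p under 0.05 in every alternative fit that measured it. In normoxic glomus cells Ntng1, Kcnd2, Scn9a, Cdh7 and Sctr averaged 2.76, 4.27, 4.21, 4.26 and 4.49. The medians of those arrays were 4.42 to 4.64, so a fall in glomus cells had little room to show. Ntng1 (probe 17750713), which encodes netrin-G1, a membrane-anchored axon guidance protein, was at 5.74, 5.99, 5.43 and 6.57 in normoxic neuroblasts and at 2.68, 2.91, 2.78 and 2.94 in hypoxic ones. Glomus cells were at 2.76 ± 0.28 in normoxia and 3.04 ± 0.30 in hypoxia, and the difference between the responses was -3.39 ± 0.32 (adjusted p = 0.000166).

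The other 5 genes of this kind also lost expression in hypoxic neuroblasts. For Kcnd2 the difference between the responses was -3.36 ± 0.42 (adjusted p = 0.00292) and for Scn9a -2.71 ± 0.41 (adjusted p = 0.012). Cdh7 (probe 17679506), a cadherin of the neural crest, was at 6.57, 7.78, 7.80 and 7.88 in normoxic neuroblasts and at 4.52, 4.22, 3.73 and 4.04 in hypoxic ones, against 4.26 and 4.06 in normoxic and hypoxic glomus cells. The difference between the responses of Cdh7 was -3.18 ± 0.42 (adjusted p = 0.00398). Sctr (probe 17869930), the secretin receptor, was at 7.63, 8.03, 7.55 and 8.12 in normoxic neuroblasts and at 3.80, 4.77, 5.27 and 4.73 in hypoxic ones, against 4.49 and 4.35 in glomus cells. Its difference between the responses was -3.06 ± 0.38 (adjusted p = 0.00282). Srgap1, a regulator of the cytoskeleton downstream of the guidance receptors of the Robo family, was at 7.24 ± 0.55 and 4.84 ± 0.23 in neuroblasts and gave -2.23 ± 0.33 (adjusted p = 0.012).

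Of the genes with a more positive change in neuroblasts, Lgr5 held most firmly. Lgr5 (probe 17835844), a receptor for R-spondins that strengthens Wnt signals, was at 5.45, 5.12, 6.36 and 4.92 in normoxic neuroblasts and at 7.64, 8.30, 7.94 and 8.18 in hypoxic ones. In glomus cells it was at 8.86 ± 0.06 and 9.08 ± 0.23. The neuroblasts thus moved towards the glomus level, with a rise of 2.55 ± 0.25 and a difference between the responses of 2.33 ± 0.35 (adjusted p = 0.0123), which was lost in 1 of 25 alternatives, median centring. Depdc1, a gene expressed in dividing cells, gave 2.35 ± 0.38 (adjusted p = 0.0237, lost in 8 of 24 alternatives) and Nusap1 1.83 ± 0.30 (adjusted p = 0.0298, lost in 10 of 25). The acid-sensitive potassium channel gene Kcnk3, whose product TASK-1 carries background current in glomus cells, rose by 0.95 in neuroblasts, against -0.65 in glomus cells. Scd, a desaturase of fatty acids, and Nav2, a neuron navigator gene, likewise rose in neuroblasts (0.70 and 1.08), with -0.71 and -0.58 in glomus cells. The differences of Kcnk3, Nav2 and Scd between the populations, of 1.60, 1.66 and 1.41, were lost in 17, 19 and 9 of 25 alternatives.

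**Figure D3:**
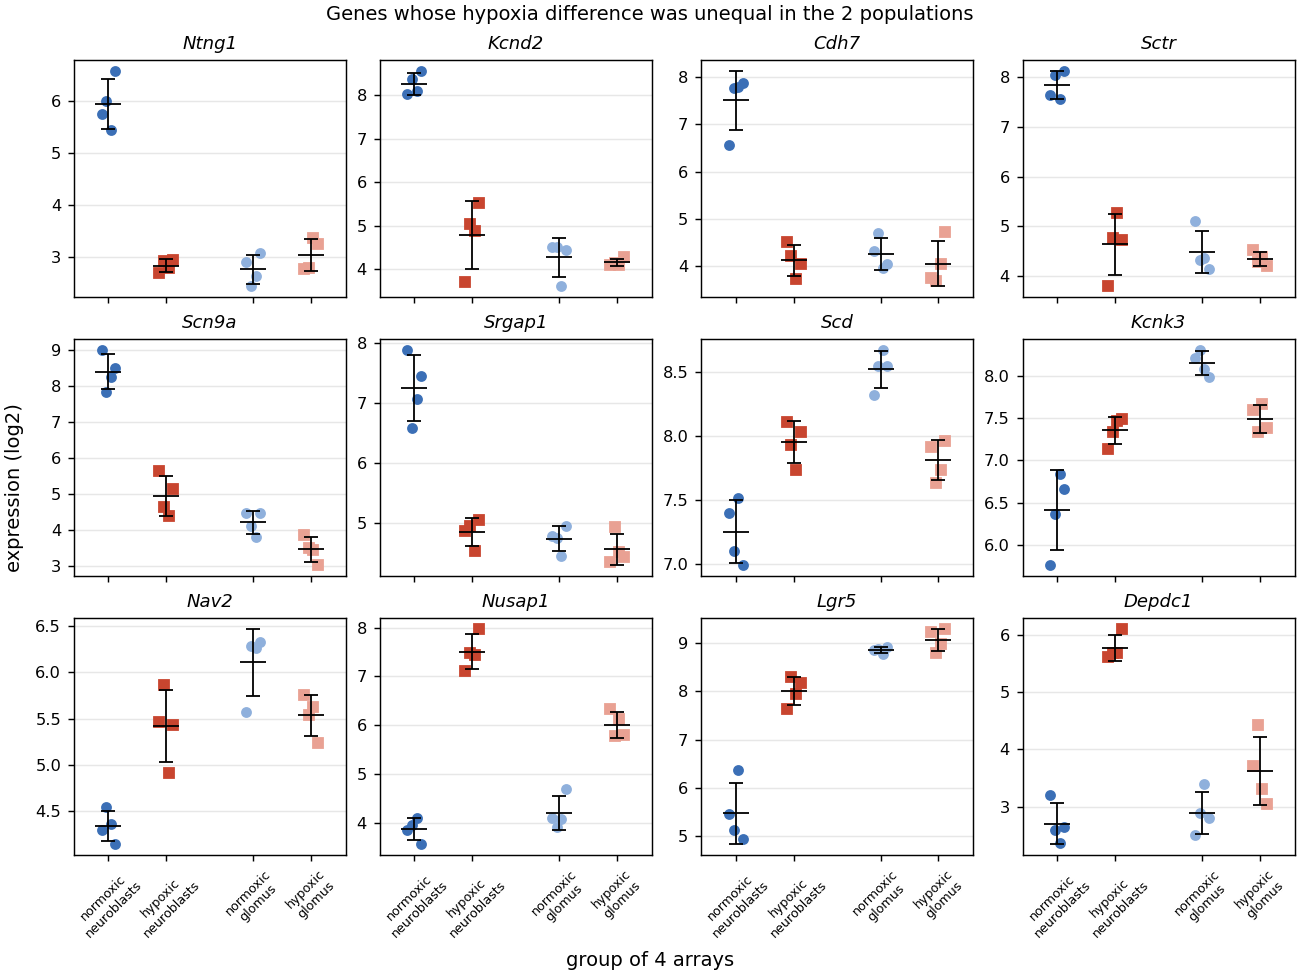
Expression (log2) of the 12 genes named by the difference between the responses of the populations, in each of the 16 arrays (points) with group means and SD (bars). Ntng1, Kcnd2, Cdh7, Sctr, Scn9a and Srgap1 are high in normoxic neuroblasts alone among the 4 groups, whereas Lgr5 is low in that group alone.

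Some other ion channel genes also fell. Of 32 sodium, calcium and TRP channel genes 14 were lower and 2 higher (43.8% and 6.25%, against 18.9% and 17.4% of all genes). The median was -0.54, and after centring 17 were lower and 1 higher. Without hypoxic replicate 1 these numbers were 14 and 1. Trpc5, a receptor-operated cation channel, was at 9.37, 9.12, 9.57 and 9.60 in normoxia and at 6.89, 7.51, 7.83 and 7.55 in hypoxia, a fall of -1.97 ± 0.19 (adjusted p = 1.5e-06). Cacna1b, the pore of N-type calcium channels, fell by 1.81 and the channel subunit gene Cacnb3 by 2.16 on the log2 scale. Nalcn, which encodes a sodium leak channel, fell by 1.39. Of 31 potassium channel genes 9 were lower and 3 higher (29.0% and 9.68%, against 18.9% and 17.4% of all genes). These counts were the same after centring, where 24.3% of all genes were lower and 5.92% higher. The list's median of 0.20 was close to the 0.19 of all genes, and after centring it was -0.09 for the list and -0.09 for all genes (-0.15 and -0.01 after quantile normalization). Kcnh2, the HERG channel, was at 7.86 ± 0.43 in normoxia and 5.83 ± 0.28 in hypoxia, and Kcnma1, the large-conductance calcium-activated channel of glomus cells, at 10.04 ± 0.18 and 8.64 ± 0.34. Kcnq3, a subunit of the M current, fell by 1.34, and Kcnmb2, an accessory subunit of the channel of Kcnma1, by 1.31.

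Receptor genes for transmitters and peptides showed several large falls. Of 45 genes 13 were lower and 6 higher (28.9% and 13.3%, against 18.9% and 17.4% of all genes). After centring 14 were lower and 0 higher by limma, where 3 of the higher genes had an unadjusted p under 0.05. Of all genes 24.3% were lower after centring. The median was 0.02, and -0.26 after centring. Chrna7 (probe 17633679), the alpha7 nicotinic acetylcholine receptor, was at 10.97, 10.62, 10.61 and 10.82 in normoxia and at 7.17, 7.86, 8.17 and 7.68 in hypoxia. This fall of -3.04 ± 0.23 was 8.2-fold (adjusted p = 2.89e-07), and glomus cells changed by -2.06. Sstr1, a somatostatin receptor, differed by -2.94 ± 0.43, the neuropeptide Y receptor gene Npy1r by -2.59 ± 0.31 and the GABA-B receptor gene Gabbr1 by -2.58 ± 0.26.

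Many genes of immature neurons were lower in hypoxia. Of 32 measured genes 18 were lower (56.2%, against 18.9% of all genes) and 3 higher, with a median of -0.89. After centring 20 were lower and 1 higher, and without hypoxic replicate 1 these numbers were 17 and 2. Dpysl3 (probe 17726013), a collapsin response mediator protein of growing axons, was at 12.27, 12.41, 12.29 and 12.41 in normoxia and at 8.93, 10.55, 9.92 and 10.39 in hypoxia. The fall was -2.40 ± 0.26 (adjusted p = 4.64e-06), and hypoxic replicate 1 was the lowest array. Rbfox1, a neuronal splicing regulator, differed by -2.37 ± 0.27 and the microtubule protein gene Map2 by -1.20 ± 0.14. Dcx, the marker doublecortin of migrating neuroblasts, was lower by 1.16 and the neuronal tubulin gene Tubb3 by 1.40, both named after their values were seen. Nnat, which encodes neuronatin, an imprinted membrane protein, went the other way: it was at 7.56, 6.48, 7.61 and 7.62 in normoxia and at 10.13, 9.02, 9.59 and 9.46 in hypoxia, a rise of 2.23 ± 0.27 (adjusted p = 1.36e-05). Another probe of Nnat differed by 1.25 (adjusted p = 0.00431).

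Transcription factors of the sympathoadrenal lineage were in part lower. Of 17 genes 5 fell and 1 rose (29.4% and 5.88%, against 18.9% and 17.4% of all genes). After centring 7 fell and 0 rose by limma, where 1 higher gene had an unadjusted p under 0.05. Sox4 was at 8.31, 8.46, 7.92 and 7.94 in normoxia and at 5.66, 5.94, 5.91 and 6.23 in hypoxia, a fall of -2.22 ± 0.20 (adjusted p = 9.76e-07). Isl1, a LIM homeodomain factor of sensory and sympathetic neurons, fell by 2.32 on the log2 scale and Tbx20, a T-box factor, by 1.79. Tlx2 fell by 1.32 and Eya1 by 1.31. Phox2a (-0.20), Hand2 (-0.62), Gata3 (0.21) and Gata2 (-0.07), other factors that set up noradrenergic cells, did not pass, and were named after their values were seen.

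The genes behind the sorting epitope were lower or uncertain. B3gat1 was at 6.15, 5.49, 6.94 and 6.89 in normoxia and at 5.16, 6.14, 5.47 and 5.27 in hypoxia. The groups overlapped, and the difference of -0.86 ± 0.29 (adjusted p = 0.0346) did not pass in 7 of 18 alternatives. Among them were the fits without normoxic replicate 3 (adjusted p = 0.114) or 4 (0.109) and without hypoxic replicate 1 (0.0916), 3 (0.0608) or 4 (0.0684). Chst10 differed by -0.27 ± 0.28 (adjusted p = 0.453). Of the proteins that carry the epitope, L1cam fell by 2.04 and Ncam1 by 0.88, and Tnr, which encodes tenascin-R, by 2.04. In all, 4 of the 8 genes of this list fell, as they did after centring, and 1, Mag, rose (0.78 ± 0.28, adjusted p = 0.0419), with overlapping groups. Mag did not pass without hypoxic replicate 1 (0.44, adjusted p = 0.128) or without normoxic replicate 2 (adjusted p = 0.109), 3 (0.0732) or 4 (0.0988).

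Receptors and ligands of the GDNF and neurotrophin families gave few calls. Of 13 genes 4 were higher and 1 lower (30.8% and 7.69%, against 17.4% and 18.9% of all genes). After centring 1 was higher and 2 lower. Ret, the receptor kinase for GDNF family ligands, was at 6.49, 6.25, 7.32 and 6.85 in normoxia and at 6.80, 8.65, 8.53 and 8.51 in hypoxia. Hypoxic replicate 1 overlapped with normoxia and the other 3 arrays did not, and the difference was 1.40 ± 0.34 (adjusted p = 0.00543). Ngfr, the p75 neurotrophin receptor, fell by 0.88. In the Notch pathway 5 of 21 genes were lower and 3 higher, among them the Notch ligand gene Jag2 (-1.10 ± 0.18) and Numb, an inhibitor of Notch that is shared out unequally in some divisions (-1.86 ± 0.30). These shares of the Notch list, 23.8% and 14.3%, were near those of all genes (18.9% and 17.4%). After centring 6 were lower and 0 higher by limma, with 1 higher gene at an unadjusted p under 0.05. The share of all genes that were lower after centring was 24.3%.

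Catecholamine genes changed in both directions. Of 14 genes 4 were higher and 6 lower (28.6% and 42.9%, against 17.4% and 18.9% of all genes). After centring 3 were higher and 7 lower. Dbh (probe 17760437) was at 10.22, 9.69, 9.87 and 9.84 in normoxia and at 6.40, 7.72, 7.86 and 8.57 in hypoxia. It fell by 2.27 on the log2 scale (± 0.34, adjusted p = 0.000108) and by 1.86 without hypoxic replicate 1. Th, the rate-limiting enzyme of the pathway, was at 12.06, 12.23, 12.40 and 12.49 in normoxia and at 9.40, 12.17, 11.48 and 11.46 in hypoxia. Hypoxic replicate 2 lay above the lowest normoxic array. The difference of Th was -1.17 ± 0.39 (adjusted p = 0.03) and became -0.59 without hypoxic replicate 1 (adjusted p = 0.0359), and it did not pass without normoxic replicate 3 (adjusted p = 0.0653) or 4 (0.0698). The noradrenaline transporter gene Slc6a2 was lower by 2.53 ± 0.31 and Cyb561, the cytochrome that regenerates ascorbate inside granules for the enzyme of Dbh, by 1.81 ± 0.23. Gch1, the first enzyme of the tetrahydrobiopterin cofactor that Th needs, rose from 5.24 ± 0.44 to 7.53 ± 0.57, and Spr, the last enzyme of that path, rose by 1.18 ± 0.17. The remaining genes that passed were Slc18a1 (1.51) and Pts (0.65), which were higher, and Maoa (-1.05) and Ddc (-0.85), which were lower.

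Of 28 dense-core granule and exocytosis genes 13 were lower and 1 was higher (46.4% and 3.57%, against 18.9% and 17.4% of all genes). These counts were the same after centring, and without hypoxic replicate 1 there were 11 lower and 1 higher. Unc13b, a priming factor of vesicles, was at 8.08, 7.91, 8.24 and 7.97 in normoxia and at 4.96, 5.92, 6.58 and 5.88 in hypoxia, a fall of -2.22 ± 0.25 (adjusted p = 8.55e-06). Syt1, a calcium sensor of release, fell by 1.22, Ptprn2, a granule membrane protein, by 1.46, and the syntaxin gene Stx1a by 1.03. Vgf, which encodes a secreted granin-like protein, rose by 1.49 ± 0.26. The granin genes Chga (0.48), Chgb (-0.16) and Scg2 (0.25), named after their values were seen, did not pass.

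Neuropeptide precursors that passed were all higher. They were 7 of 22 genes (31.8%, against 17.4% of all genes), and 10 of the 22 had an unadjusted p under 0.05 by limma. The lowest member, Prlh, was at -0.92 (adjusted p = 0.0841). After centring 3 were higher and the list's median was 0.07 against 0.35. Tac3 (probe 17828745), the neurokinin B precursor, was at 4.37, 5.65, 4.36 and 5.06 in normoxia and at 8.94, 8.60, 8.67 and 8.76 in hypoxia, a rise of 3.88 ± 0.36 (adjusted p = 1.23e-06). Npy, the neuropeptide Y precursor, was at 7.47, 6.97, 7.55 and 7.21 in normoxia and at 9.80, 10.33, 9.86 and 9.91 in hypoxia. It rose 6.39-fold (2.68 ± 0.20, adjusted p = 2.89e-07), while the receptor gene Npy1r fell, as given above. Cartpt, the precursor of the CART peptides, rose by 1.43 ± 0.32.

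The genes of the hypoxia-inducible factor (HIF) pathway fell more often than they rose. Of 10 genes 5 were lower and 1 higher, with a median of -0.86, and after centring 6 were lower and 0 higher by limma (0 also at an unadjusted p under 0.05). Epas1 (probe 17813849), which encodes HIF-2alpha, was at 12.53, 12.49, 12.47 and 12.48 in normoxia and at 9.86, 11.05, 10.46 and 10.75 in hypoxia. The normoxic arrays were nearly identical, the hypoxic arrays varied more, and the fall was 3.9-fold (-1.96 ± 0.20, adjusted p = 2.83e-06). Arnt2 and Arnt, partners of the alpha subunits, fell by 2.66 and 1.45 on the log2 scale, and Hif1a by 1.02. Egln2, a prolyl hydroxylase that marks alpha subunits for breakdown, fell by 0.95, while Egln3, the hydroxylase gene known to be induced by HIF in many cells, was at -0.02 (adjusted p = 0.95).

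HIF target genes changed in both directions. Outside glycolysis 8 of 35 were higher and 10 lower (22.9% and 28.6%, against 17.4% and 18.9% of all genes). The median of 0.10 was -0.19 after centring, where 2 were higher and 10 lower. Car12, a carbonic anhydrase of the cell surface, was at 11.75, 11.42, 10.61 and 11.25 in normoxia and at 7.61, 8.76, 7.99 and 8.07 in hypoxia, a fall of -3.15 ± 0.28 (adjusted p = 9.76e-07). Adm, which encodes the vasodilator adrenomedullin, fell by 1.71, Ndrg1 by 1.62 and Wsb1 by 1.73. Higd1a, a mitochondrial protein, rose by 1.12 ± 0.19. Vegfa, the vascular growth factor gene, was at 0.22 (adjusted p = 0.39) and was named after its value was seen. Glycolysis and lactate genes gave 4 higher and 5 lower of 22 (18.2% and 22.7%, near the shares of all genes), and 2 and 6 after centring. The glucose transporter genes Slc2a3 and Slc2a1 were lower by 2.40 and 0.91 and the lactate carrier gene Slc16a1 by 1.04. Pgk1, a glycolytic kinase, rose by 0.94 ± 0.20 and Slc16a3, another lactate carrier, by 0.95 ± 0.22. In the citric acid cycle list 8 of 17 genes were lower and 2 higher (47.1% and 11.8%, against 18.9% and 17.4% of all genes). After centring the numbers were 8 and 0 by limma, with 1 higher gene at an unadjusted p under 0.05. The lower genes included Dlst (-1.98 ± 0.27) and Acly (-2.05 ± 0.30), which splits citrate in the cytosol for lipid synthesis. Acly and the gene of the cytosolic aconitase, Aco1 (-1.56 ± 0.24), are in the list but lie outside the mitochondrial cycle.

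Most measured subunits of the respiratory chain were higher in hypoxia, and a part of RNA quality or transcript length in this was not tested. For complex I 28 of 32 genes were higher and 1 lower (87.5% and 3.12%), with a median of 1.18, and after centring 23 were higher and 1 lower. Ndufb6 was at 6.77, 7.36, 7.85 and 7.14 in normoxia and at 9.74, 9.35, 10.08 and 9.60 in hypoxia, a rise of 2.41 ± 0.27 (adjusted p = 6.88e-06). Ndufv3 rose by 1.89 ± 0.17, although another probe of it differed by 0.74 (adjusted p = 0.0214), and Ndufa2 and Ndufs5 rose by 1.95 and 1.99. For complexes II to V 24 of 34 genes were higher and 3 lower (70.6% and 8.82%, against 17.4% and 18.9% of all genes). The median was 0.92, and after centring 17 were higher and 4 lower. Without hypoxic replicate 1 these numbers were 24 and 1. Uqcrq of complex III rose by 2.22 ± 0.19, Cox5a of complex IV by 1.57 ± 0.17 and Atp5me of the ATP synthase by 1.90 ± 0.24. The genes lower in hypoxia were Ndufs1 (-1.002), Sdha (-0.76), Atp5f1a (-0.79) and Atp5f1b (-0.94), named after their values were seen. Without hypoxic replicate 1 Ndufs1 (-0.52, adjusted p = 0.0597), Sdha (-0.49, adjusted p = 0.114) and Atp5f1a (-0.60, adjusted p = 0.0638) did not pass, and Atp5f1b did (-0.63, adjusted p = 0.0277). Complex I then had 28 higher genes and 0 lower by limma, with 1 lower at an unadjusted p under 0.05.

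Among the atypical mitochondrial genes linked to oxygen sensing in glomus cells, Cox4i2 stood out. Cox4i2 (probe 17767425), an isoform of a cytochrome oxidase subunit, was at 9.51, 9.80, 9.95 and 9.95 in normoxia and at 11.15, 11.47, 11.92 and 11.77 in hypoxia. The rise of 1.77 ± 0.17 was 3.42-fold (adjusted p = 1.73e-06) with no overlap. Ndufa4l2 did not pass (-0.17, adjusted p = 0.54) and Cox8b neither (0.52 ± 0.20, adjusted p = 0.0561). Pc, the pyruvate carboxylase that feeds the citric acid cycle, fell by 1.31. In all 2 of the 7 genes rose and 1 fell (28.6% and 14.3%, against 17.4% and 18.9% of all genes), also after centring.

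Cytosolic ribosomal protein genes were higher in part, 24 of 54 with 3 lower (44.4% and 5.56%, against 17.4% and 18.9% of all genes). The median was 0.39, and after centring 11 were higher and 4 lower. Rps16 was at 7.70 ± 0.15 in normoxia and 9.46 ± 0.27 in hypoxia (1.76 ± 0.19, adjusted p = 5.12e-06). These genes have near-identical processed copies in the genome, so a probe may not be specific to 1 of them. Of 30 proteasome genes 8 were higher and 4 lower (26.7% and 13.3%, against 17.4% and 18.9% of all genes). After centring 4 were higher and 4 lower, and without hypoxic replicate 1 the numbers were 15 and 4. Psmd14, a deubiquitinase of the lid, rose by 1.54 ± 0.17, while Psmd2, a scaffold of the base, fell by 1.99 ± 0.22.

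Immediate early genes respond within minutes to stimulation and also to cell dissociation. They were lower in 12 of 22 cases and higher in 1 (54.5% and 4.55%, against 18.9% and 17.4% of all genes). The median was -0.64. After centring 12 were lower and 0 higher by limma, with 1 higher gene at an unadjusted p under 0.05. Jun was at 11.60, 11.54, 11.76 and 11.74 in normoxia and at 7.91, 9.59, 9.03 and 9.18 in hypoxia. The fall was -2.73 ± 0.27 (adjusted p = 2.14e-06), and another probe of Jun differed by -1.005 (adjusted p = 0.0181). Fosb fell by 2.58 ± 0.27, the phosphatase gene Dusp1 by 2.92 ± 0.32 and Fos by 1.16 ± 0.21. Genes of endoplasmic reticulum stress were lower in 12 of 24 cases and higher in 2, and after centring in 12 and 0 by limma, with 1 higher gene at an unadjusted p under 0.05. Without hypoxic replicate 1, 10 were lower and 1 higher. In this list Herpud1, a factor of protein degradation, was at -1.85 ± 0.19 and the chaperone genes Calr and Hspa5 at -1.61 ± 0.21 and -1.06 ± 0.21. The redox list had 6 higher and 6 lower of 27 genes, 22.2% each against 17.4% and 18.9% of all genes. After centring 2 were higher and 7 lower, and without hypoxic replicate 1 the numbers were 9 and 6. In it the peroxiredoxin gene Prdx4 rose by 1.49 ± 0.20 and thioredoxin, Txn1, by 1.15 ± 0.15, and Keap1, the repressor of the Nrf2 response, fell by 1.28 ± 0.21.

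S100 proteins and annexins, most but not all of which bind calcium, often act as pairs at membranes. They were higher in 11 of 20 cases and lower in 1 (55.0% and 5.0%, against 17.4% and 18.9% of all genes). The median was 1.12, and after centring 9 were higher and 2 lower. S100a10 (probe 17740584) was at 6.69, 8.64, 7.23 and 6.90 in normoxia and at 11.35, 11.15, 10.78 and 10.99 in hypoxia. It rose by 3.70 ± 0.40 (adjusted p = 5.41e-06), and normoxic replicate 2 was the highest of its group. S100a11 was at 1.72, 4.02, 3.90 and 2.94 in normoxia and at 6.35, 5.76, 6.86 and 7.74 in hypoxia, a wide spread in both groups around a rise of 3.53 ± 0.47 (adjusted p = 3.46e-05). S100a4 rose by 2.81 ± 0.28. Anxa2, the partner of S100a10, was higher by 1.38, named after its value was seen, and Anxa6 fell by 1.45 ± 0.22.

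The other large falls were of genes with various roles. Txnip (probe 17741001), an inhibitor of thioredoxin that also limits glucose uptake, was at 10.10, 10.61, 10.55 and 10.33 in normoxia and at 5.78, 8.25, 5.39 and 7.92 in hypoxia. The hypoxic arrays fell into a lower pair and a higher pair, all below normoxia, with a difference of -3.56 ± 0.49 (adjusted p = 4.58e-05). Scube1, a secreted and membrane-bound glycoprotein, fell by 3.36 ± 0.29 on the log2 scale and Nfasc, the adhesion molecule neurofascin of axon initial segments, by 3.25 ± 0.24. Tnpo1, a nuclear import receptor, fell by 3.35 ± 0.39 and Ddx6, an RNA helicase of processing bodies, by 3.31 ± 0.33. Zbtb44, a zinc finger gene, fell by 3.07 ± 0.26.

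**Figure D4:**
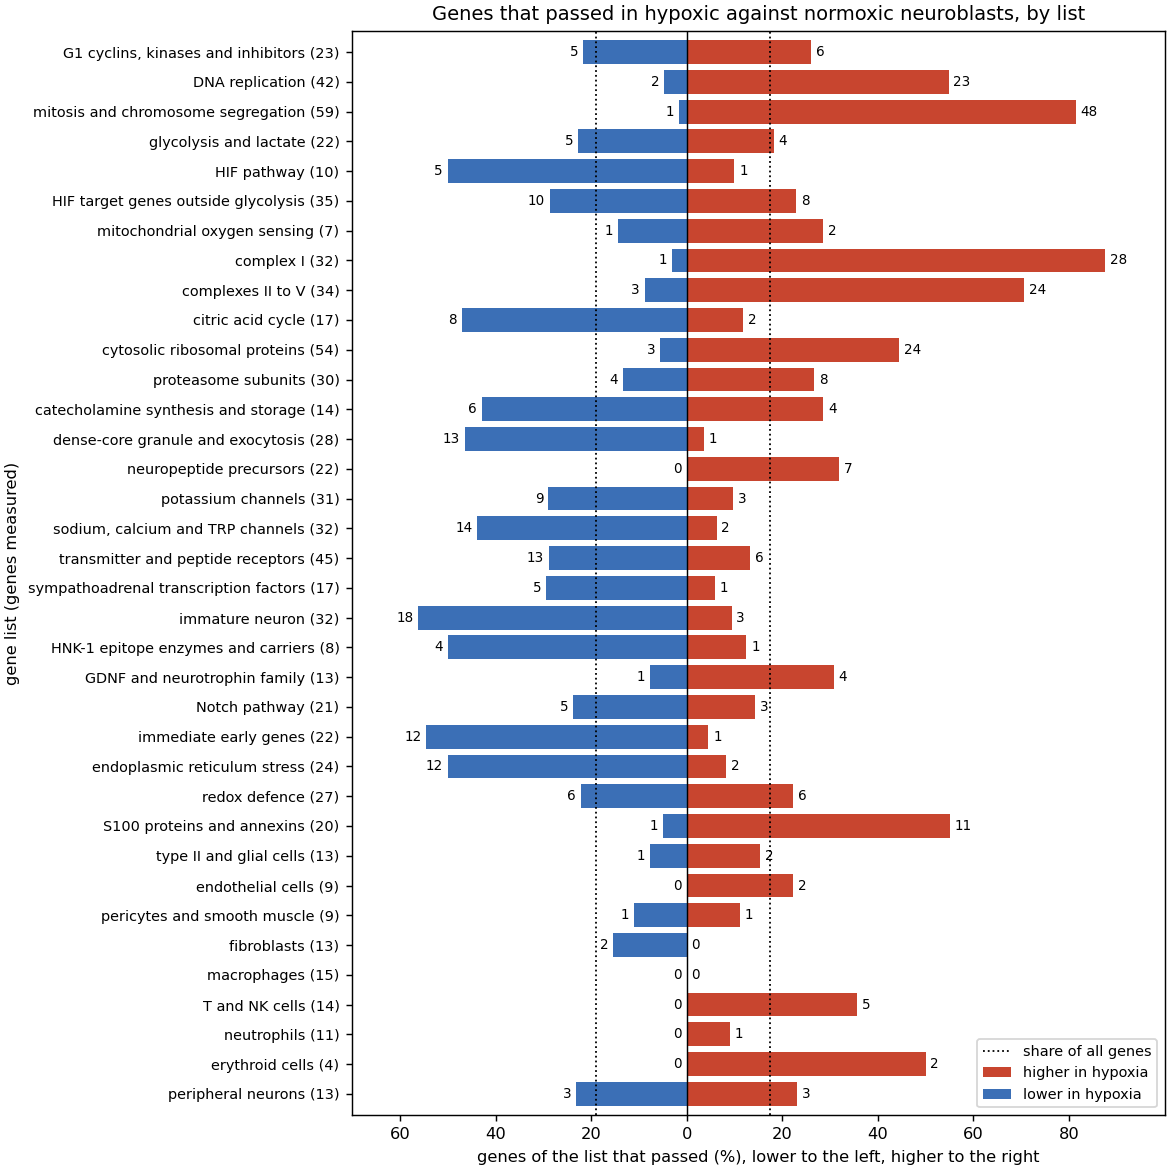
Share of the measured genes of each of 36 lists that passed as higher (right) or lower (left) in hypoxic neuroblasts, in percent, with the number of genes beside each bar, the number measured in brackets and dotted lines at the shares of all genes (17.4% and 18.9%). Complex I (28 of 32) and mitosis (48 of 59) reach farthest to the right, and immature neuron genes (18 of 32) and immediate early genes (12 of 22) farthest to the left.

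Markers of other cells that the sort could hold were read from 9 lists. The summed linear level of 9 endothelial genes was 157 to 231 in the normoxic arrays and 378 to 463 in the hypoxic arrays. In this list 2 genes were higher (22.2%, near the 17.4% of all genes), or 1 after centring. Cldn5, a tight junction gene, rose from 4.74 ± 0.55 to 7.34 ± 0.87. Vwf rose by 0.76 and did not pass after centring or quantile normalization. The 14 T and NK cell genes summed to 180 to 202 and then 255 to 331, with 5 higher (35.7%, against 17.4% of all genes). After centring 1 was higher and without hypoxic replicate 1 there were 2, and Cd3g was the largest (1.25 ± 0.31). For 4 erythroid genes the sums were 47.2 to 71.4 and 58.5 to 162. The globin genes Hba-a1 (1.44, adjusted p = 0.00721) and Hbb-b1 (1.17, adjusted p = 0.0199) were higher, and Hbb-b1 did not pass after centring (adjusted p = 0.0654) or without hypoxic replicate 1 (adjusted p = 0.0658). For 15 macrophage genes the sums were 332 to 495 and 403 to 671, where none passed by limma and 1 had an unadjusted p under 0.05. The sums of 13 fibroblast genes were 878 to 5624 and 700 to 1751, and the highest normoxic array was replicate 2, with Col1a1 at 9.67 against 6.33, 7.06 and 6.45. Fibroblast genes passed as lower in 2 cases (15.4%, against 18.9% of all genes), Gsn and Fbln1.

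The other 4 lists were mixed. The 13 type II and glial genes summed to 1677 to 2104 and 1669 to 3102. In them S100b rose by 2.33 ± 0.41 and Gfap by 0.87 ± 0.17, Ngfr fell, and Sox10 did not pass (0.44 ± 0.19, adjusted p = 0.0899). The sums for 9 pericyte and smooth muscle genes were 5444 to 6334 and 2620 to 4289, with Rgs5 lower (-0.88 ± 0.15) and Des higher. A linear sum is weighted towards the brightest genes of a list. The mean log2 levels of these genes overlapped (5.96 to 7.17 and 5.83 to 6.74), and the median difference of the list was 0.08. For 11 neutrophil genes they were 128 to 169 and 168 to 228, with Ltf higher (0.51, adjusted p = 0.0438). Ltf did not pass without normoxic replicate 2, 3 or 4 or without hypoxic replicate 1, 2 or 3 (adjusted p from 0.0572 to 0.122). For 13 genes of peripheral neurons the sums were 5878 to 6950 and 2857 to 5075, while the mean log2 levels overlapped (5.777 to 5.902 and 5.613 to 5.905). Of these genes 3 were higher and 3 lower (23.1% each, against 17.4% and 18.9% of all genes), Isl1 among the latter. After centring 0 were higher by limma, with 1 at an unadjusted p under 0.05, and 4 were lower. The deposited values carry no detection call, so which markers are absent cannot be read from them, and the part of such cells in the differences above was not tested.

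In glomus cells 5744 probes passed with hypoxia by limma (18.9%). The glomus comparison shares no array with that of the neuroblasts, but both came from the same fit with a common variance per probe. Whether HNK-1 positive and negative samples came from the same carotid bodies is not stated, and the main fit did not pair them. The calls of the populations are therefore not independent. Of the probes that passed, 4458 did so in both populations in the same direction and 5 in opposite directions. The shared probes were 45.7% of the neuroblast list and 77.61% of the glomus list, 2028 of them higher and 2430 lower. Across all probes the differences of the populations had a Pearson r of 0.807, a description over probes that share arrays and brightness. Over genes, 1654 (9.1%) were higher and 2448 (13.5%) lower in glomus cells. The mitosis list had 25 higher and 1 lower there, with a median of 0.65 against 1.38 in neuroblasts. For 55 of its 59 genes the change was larger in size in neuroblasts, and so it was for 11841 of all 18166 genes. Within the list only Nusap1 passed the test of the difference between the populations. Complex I had 27 higher genes in glomus cells with a median of 0.85, and the immature neuron list 2 higher and 7 lower with a median of -0.14. Immediate early genes had 2 higher and 5 lower with a median of -0.18 there.

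**Figure D5:**
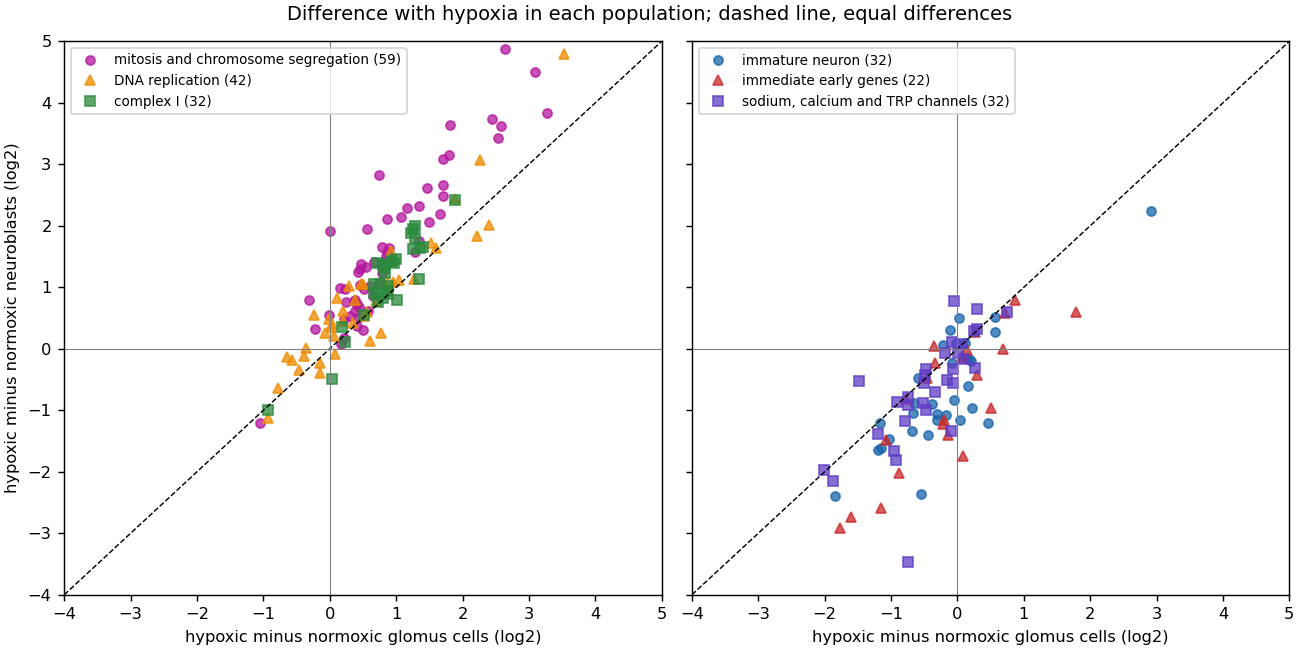
Hypoxic minus normoxic difference (log2) in neuroblasts (vertical axis) against that in glomus cells (horizontal axis) for single genes of 6 lists, with the number of genes in brackets and a dashed line where both are equal. Most mitosis genes lie above the line on the positive side, and Scn9a is the channel gene far below the line at -0.75 in glomus cells and -3.46 in neuroblasts.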

How the data were processed

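Total RNA of 16 sorted carotid body samples was measured on Affymetrix rat arrays, per the labels. The deposited values are the authors' log2 expression values of 30429 probes. The base was inferred from their range of 0.87 to 13.33. The submitters' processing notes name Transcriptome Analysis Console, while the sources used here give no version, background correction, normalization or annotation. Array dates and batches are not stated, and a batch, if any, cannot be told apart from oxygen.

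All probes were kept, without further scaling. A mean per group was fitted to all 16 arrays with limma 3.58.1 in R 4.3.3 (lmFit and eBayes, 12 residual degrees of freedom, two-sided), and p-values were adjusted by Benjamini-Hochberg over all probes. Probes with an adjusted p under 0.05 passed. The code was tested on simulated data. The annotation names 1 gene for 18511 probes, several for 575 and none for 11343. It gives 18166 genes, each read at its brightest single-gene probe. For 18394 of the 18511 single-gene probes the gene ID was found in the reference. Figures used Python 3.11.15 and matplotlib 3.10.9.

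Of 936 entries in 36 gene lists 822 were measured. Genes were named by rule: the 12 largest rises and the 12 largest falls that passed without overlap between the groups, markers, up to 5 genes per list by p, and the 6 largest differences between populations in each direction. Members and lists were chosen with earlier results of these data known. Alternatives were 2 other scalings, filters that left out the dimmest 25% or 50% of probes, a trended robust variance, array weights, averaged probes, the neuroblast arrays alone, a replicate block, a 2-fold and a 0.01 threshold, and leaving out each array.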

Additional observations from a re-analysis of the deposited data

Results flagged for a closer look

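Of 76 groups of 4 values that were checked, 5 held an array far from the other 3 by Dixon's criterion, and chance gives about 1 in 20. They were the hypoxic neuroblast values of Cks2, with replicate 4 at 8.43, and of Depdc1, with replicate 4 at 6.11, and the normoxic values of Cdh7, with replicate 1 at 6.57. The other two were the mean correlations of an array with its group, at 0.9738 for normoxic replicate 4 and 0.9144 for hypoxic replicate 1.

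The change with hypoxia differed between neuroblasts and glomus cells by limma's interaction test for 12 named genes. The differences were -3.39 for Ntng1, -3.36 for Kcnd2, -3.18 for Cdh7, -3.06 for Sctr, -2.71 for Scn9a and -2.23 for Srgap1. On the positive side they were 2.35 for Depdc1, 2.33 for Lgr5, 1.83 for Nusap1, 1.66 for Nav2, 1.60 for Kcnk3 and 1.41 for Scd.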

How the results depend on the processing

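The count of 9755 probes kept within 1.5 times except at 6262 in the fit of the 8 neuroblast arrays, 5195 at an adjusted p under 0.01 and 4252 with a 2-fold threshold, and leaving out 1 array gave 7404 to 10826. Higher probes numbered 1826 after centring, 3278 after quantile normalization, 3156 without the dimmer 50% of probes, 3000 in the 8-array fit, 2376 at 0.01, 1689 with the 2-fold threshold and 2066 after centring without hypoxic replicate 1, which was added after the data were seen (without 1 array, 3846 to 6537). Lower probes were 2563 with the 2-fold threshold. Normoxic and hypoxic neuroblast arrays with the same replicate number had correlations of deviations of 0.20, 0.02, 0.14 and 0.05, and those with unlike numbers -0.24 to 0.25. Neuroblast and glomus arrays were not compared in this way. Whether the numbers mark paired samples is not stated, and these correlations cannot settle it. With the replicate block 10207 probes passed, and 19 for the difference between populations. That difference passed for 11 probes after centring, 83 with array weights, 5 at 0.01 and 11 to 35 without 1 array. Of 172 named probes that passed, 144 did so with the same direction in every alternative fit at an adjusted p under 0.05. This count, like the counts of alternatives given for single genes, leaves out the 0.01 and 2-fold thresholds. Cspg4 (-0.03 after centring) and Ahsp (-0.20 after centring without hypoxic replicate 1), which had not passed, changed sign. No signal over background is given, so how far dim probes limit these counts was not tested.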
